A study of Mus musculus with 8 samples.

Results

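Solute carriers are the largest group of membrane transporters, and their genes carry the symbol Slc followed by a family number and a member number. The members described here were all rows of the deposited E11.5 or E14.5 gene tables whose symbol began in this way. The 8 genes *Slc2a1*, *Slc2a3*, *Slc4a1*, *Slc5a7*, *Slc6a2*, *Slc16a1*, *Slc18a2* and *Slc18a3* were left out of the 213 symbols that match. This left 205 members in 44 families, of 14189 gene symbols in either table. The E11.5 table held 194 of them among 13506 genes, and 196 were among the 13413 genes of E14.5, with 185 members in both, 9 at E11.5 only and 11 at E14.5 only. Of the 205, 8 carry a longer symbol of the same stem (*Slc2a4rg-ps*, *Slc4a1ap*, *Slc7a6os*, *Slc9a3r1*, *Slc9a3r2*, *Slc10a3-ubl4*, *Slc10a3-ubl4,Ubl4* and *Slc36a1os*). These rows met the naming rule, but they are scaffold proteins, antisense or neighbouring transcripts, readthrough transcripts or a pseudogene rather than transporters.

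RNA-seq was made from dissected mouse sympathetic ganglia, with 2 libraries per genotype from pooled embryos. At E11.5, *Isl1* CKO ganglia (*Wnt1-Cre;Isl1* f/f, labelled Isl1-/-) were compared with control ganglia (*Wnt1-Cre;Isl1* +/+, labelled wild type), and both genotypes carried Wnt1-Cre, which drives recombination in the neural crest lineage, and the *Rosa26-tdTomato* reporter, by which surrounding nonfluorescent tissue was removed. At E14.5, *Isl1* hypomorphic ganglia (*Isl1* f-neo/f-neo, labelled Isl1 mutation), which carry a germline allele of reduced *Isl1* expression, were compared with wildtype ganglia (*Isl1* +/+) dissected without a reporter. Each table gives 1 FPKM (mapped fragments scaled for transcript length and for the size of the library) per gene and genotype, into which the authors combined both libraries, so that the spread between libraries and the sequencing depth are unknown and no difference below was tested.

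Solute carriers move amino acids, sugars, ions, metals, nucleotides, vitamins and neurotransmitters across the plasma membrane, the membranes of vesicles and lysosomes and the inner mitochondrial membrane. In sympathetic neurons they are best known for the vesicular monoamine transporters, which load noradrenaline into vesicles, and for the transporter that takes it up again. Family 25 forms the carriers of mitochondria, families 1, 6, 7, 36, 38 and 43 hold mainly amino acid transporters, families 30, 31, 39 and 40 transport zinc, copper and iron, and family 12 sets neuronal chloride.

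*Isl1* itself (mm9 chr13:117088478-117099896) was at 133 FPKM in controls against 40.01 in CKO ganglia at E11.5, and at 162 in wildtype and 83.1 in hypomorphic ganglia at E14.5. Transcript remained in both mutants. Of 16 fixed sympathetic neuron markers, all were listed at both stages. The E11.5 CKO value also held more RNA of other cell types. Erythroid genes took 2.29% of all FPKM in controls against 11.2% in CKO ganglia, with 11 of 12 listed genes at least 1.5-fold higher and the embryonic globin *Hbb-y* listed at 7552 in control and at 0 in CKO, and 11 of 12 neural crest and glial markers, 8 of 12 mesenchyme markers and 8 of 9 macrophage markers were at least 1.5-fold higher. Sympathetic neuron markers summed to 3634 FPKM in controls against 3077 in CKO ganglia. Of these 16 markers, 7 were called lower and 0 higher, with a median log2 ratio of -0.44, and 10 of 14 proliferation genes were lower. At E14.5 the erythroid share was 1.26% and 1.55%, sympathetic neuron markers summed to 6609 FPKM in wildtype and 5476 in hypomorphic ganglia with 1 of 16 called lower, and the median log2 ratio was 0.53 for proliferation and 0.46 for endothelial genes. The part of these shifts in the members' E14.5 values was not tested. In such bulk tissue fewer cells of a type and less RNA per cell cannot be told apart.

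The 3 most abundant members in E11.5 control ganglia were mitochondrial carriers that nearly every cell uses, and *Slc25a4* and *Slc25a3* also led in E14.5 wildtype ganglia. *Slc25a4*, an exchanger of ADP and ATP across the inner mitochondrial membrane, stood at 405 FPKM in controls against 499 in CKO ganglia at E11.5, and at 631 in wildtype and 568 in hypomorphic ganglia at E14.5. Its paralog *Slc25a5* was at 272 and 353 FPKM at E11.5 and at 80.7 and 82.8 at E14.5, and the mitochondrial phosphate carrier *Slc25a3* was at 240 and 297 at E11.5 and at 258 and 251 at E14.5. In control ganglia, *Slc25a5* was thus listed lower at the later stage while *Slc25a4* was listed higher, with the limit that the tables were normalized separately. The E14.5 wildtype order continued with *Slc25a39* (111 FPKM), *Slc38a2* (106), *Slc22a17*, a receptor for lipocalin (98.3, and 84.8 in hypomorphic ganglia), *Slc25a1* and *Slc38a4*, with *Slc25a5* at rank 8. The 3 leading genes of E11.5 held 27.6% of the summed FPKM of all members in E11.5 control ganglia.

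Next in control ganglia came transporters of glutamine and other neutral amino acids from family 38 and carriers of copper, zinc and glutathione. *Slc38a2* was at 121 FPKM in controls against 114 in CKO ganglia at E11.5, and at 106 and 101 at E14.5. *Slc39a6*, a zinc transporter, was at 64.2 and 59.2 FPKM at E11.5 and at 76.9 and 77.9 at E14.5. *Slc10a4*, a protein of synaptic vesicles in cholinergic and monoaminergic neurons, was at 66.5 and 63.2 at E11.5. These 3 genes were less than 1.5-fold apart between genotypes at E11.5, whereas *Slc38a4*, *Slc38a1*, *Slc31a1* and *Slc25a39*, also among the 10 most abundant members in controls, were further apart. The median member was less abundant than the median gene, at 6.79 against 11.3 FPKM in E11.5 control ganglia, and members together took 0.699% of all FPKM there and 0.622% in CKO ganglia.

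**Figure D1:**
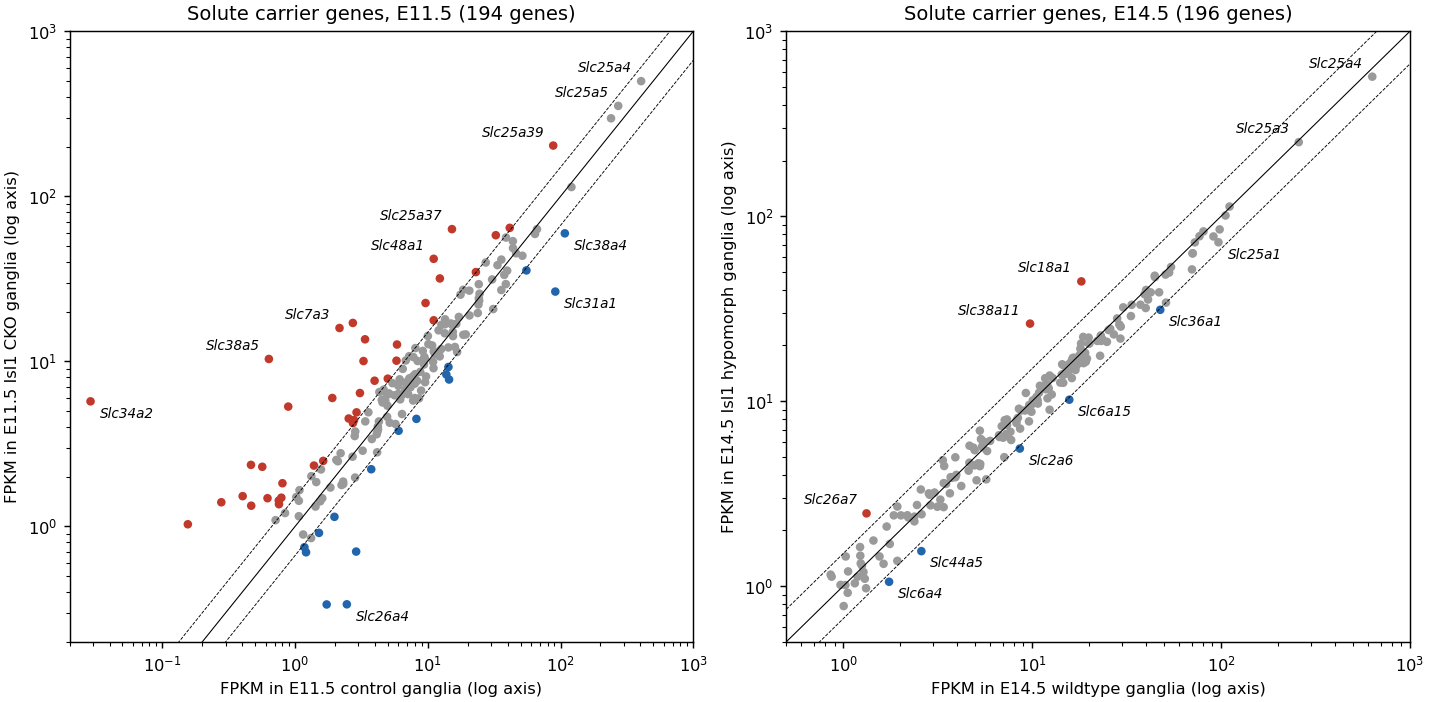
FPKM of every listed solute carrier gene in control (horizontal, log axis) and mutant ganglia (vertical, log axis), at E11.5 (left, 194 genes) and E14.5 (right, 196 genes). Each point is 1 gene with 1 value per genotype, the solid line marks equal values and the dashed lines a 1.5-fold difference, with red points higher and blue points lower in the mutant. At E11.5, 39 genes lay above and 16 below the dashed lines, against 3 and 5 at E14.5.

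At E11.5, solute carriers were at least 1.5-fold higher in CKO ganglia at a share near that of all genes, and lower at a smaller share. A difference of this size was used as the call, as log2 of the mutant over the control FPKM after adding 0.1 to each. Of the 194 members, 39 (20.1%) were higher, against 18.9% of all 13506 genes, and 16 (8.25%) were lower, against 12.9% of all genes. The members' median log2 ratio was 0.13, with quartiles of -0.16 and 0.53, and that of all genes was 0.05, with quartiles of -0.31 and 0.45. Of the 39 higher members, 14 were under 1 FPKM in control ganglia and entered the table only through their CKO value, since it lists no gene under 1 FPKM in both genotypes, and 6 of the 16 lower members were under 1 FPKM in CKO ganglia. The listed FPKM of all genes summed to 476289 in controls and 617263 in CKO ganglia. In a rescaling, the CKO values were multiplied so that genes outside the erythroid list had the same sum in both genotypes. It therefore evened out the totals of all other genes and was not a removal of red cell RNA alone. It gave 32 lower members (16.5%, against 22.5% of all genes) and 27 higher members (13.9%, against 12.2%). The direction of the balance thus depended on the scaling. The share of higher members among those called was 70.9%, and 63.6% after centring on the median of all genes and 45.8% after that rescaling.

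Among lower members, the copper importer *Slc31a1* (mm9 chr4:62021761-62052803) had the steepest fall among members at 5 FPKM or more. It was listed at 91.3 FPKM in controls against 26.5 in the CKO, a log2 ratio of -1.78, and at 70.8 and 63.1 FPKM at E14.5, a log2 ratio of -0.17. It ranked among the 10 most abundant members of the E11.5 control ganglia. Its family relative *Slc31a2* had a log2 ratio of -0.02 at E11.5, and family 31 as a whole summed to 97.8 FPKM in controls against 32.8 in CKO ganglia. *Slc31a2* falls outside the rule for named genes and was added after its values were seen.

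The promoter of *Slc31a1* is given first of 3 promoters shown because this gene was the steepest fall among members at 5 FPKM or more at E11.5. *Slc38a5* and *Slc38a11* are printed beside it because the first was among the steepest rises at E11.5 and the second the steepest rise at E14.5. Each sequence holds the 250 bases before the RefSeq gene start on the gene's own strand, in GRCm38.p6, at chr4:62360451-62360700 (plus strand), chrX:8271131-8271380 (plus strand) and chr2:65364027-65364276 (minus strand). Capitals mark the letters AGATAA or TGATAA, or either of these with G as the last letter, on either strand, the core to which GATA factors bind, overlapping matches included.
Slc31a1: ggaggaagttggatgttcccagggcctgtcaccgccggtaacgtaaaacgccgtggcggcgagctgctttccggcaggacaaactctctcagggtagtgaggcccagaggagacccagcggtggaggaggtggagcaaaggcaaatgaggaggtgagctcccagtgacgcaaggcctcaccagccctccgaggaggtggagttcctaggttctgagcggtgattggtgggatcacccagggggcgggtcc
Slc38a5: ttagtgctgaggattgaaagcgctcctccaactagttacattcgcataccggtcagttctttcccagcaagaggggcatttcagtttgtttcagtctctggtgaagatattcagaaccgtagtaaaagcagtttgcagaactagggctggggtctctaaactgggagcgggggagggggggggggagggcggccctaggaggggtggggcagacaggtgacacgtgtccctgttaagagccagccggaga
Slc38a11: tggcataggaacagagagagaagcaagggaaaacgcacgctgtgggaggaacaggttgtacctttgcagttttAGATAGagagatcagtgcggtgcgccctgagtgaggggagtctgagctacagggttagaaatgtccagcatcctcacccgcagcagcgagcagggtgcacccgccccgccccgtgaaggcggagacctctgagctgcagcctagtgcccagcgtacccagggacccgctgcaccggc
The *Slc38a11* sequence held 1 match and the other two held 0, and 26.5% of all 32851 promoter windows of this length held at least 1. A promoter was matched for 155 of the 205 members (75.6%), too few for a share over the members to be given.

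Other members that were lower at E11.5 bring amino acids and osmolytes into cells. *Slc38a4*, a neutral amino acid transporter, was at 108 FPKM in controls against 59.7 in the CKO, a log2 ratio of -0.85, and its relative *Slc38a1*, which takes up glutamine, was at 55.3 and 35.6 FPKM, a ratio of -0.64. *Slc7a1*, the widely used importer of arginine and lysine, was at 14.5 and 7.77 FPKM, a ratio of -0.89. *Slc5a3*, the myo-inositol transporter, was at 13.8 and 8.33 FPKM, a ratio of -0.72. At E14.5 the log2 ratios of these 4 genes lay between -0.24 and 0.18, and none was 1.5-fold apart. Between them, the 9 listed genes of family 38 summed to 347 FPKM in controls against 280 in CKO ganglia at E11.5. Of their log2 ratios, 7 of 9 were below 0, against 46.1% of all genes, and some lay close to 0, such as *Slc38a2* at -0.09. Only 2 of the 9, *Slc38a4* and *Slc38a1*, were called lower, and 1 was called higher.

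Lower values were also listed for carriers of ions, a mitochondrial carrier and the taurine transporter. *Slc4a7*, which brings sodium and bicarbonate into cells, was at 14.3 FPKM in controls against 9.25 in the CKO, a log2 ratio of -0.62. *Slc9a8*, a sodium and proton exchanger of the Golgi, was at 6.03 and 3.80 FPKM, a ratio of -0.65. With 1 instead of 0.1 added to each FPKM, *Slc4a7* (-0.58) and *Slc9a8* (-0.55) came under 1.5-fold. The mitochondrial carrier *Slc25a30* was at 8.21 and 4.48 FPKM, a ratio of -0.86. *Slc7a14* at 31.1 and 20.7 FPKM and the taurine transporter *Slc6a6* at 16.6 and 11.4 FPKM lay just short of 1.5-fold, with ratios of -0.58 and -0.54. Both passed it after centring on the median of all genes and after rescaling without erythroid genes. The lowest log2 ratio of any member was that of *Slc26a4*, the anion exchanger known as pendrin, at 2.46 and 0.338 FPKM (-2.55, and -1.37 with 1 added), both low levels. The sodium and proton exchanger *Slc9a5*, added after its values were seen, was at 2.89 and 0.704 FPKM (-1.89).

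**Figure D2:**
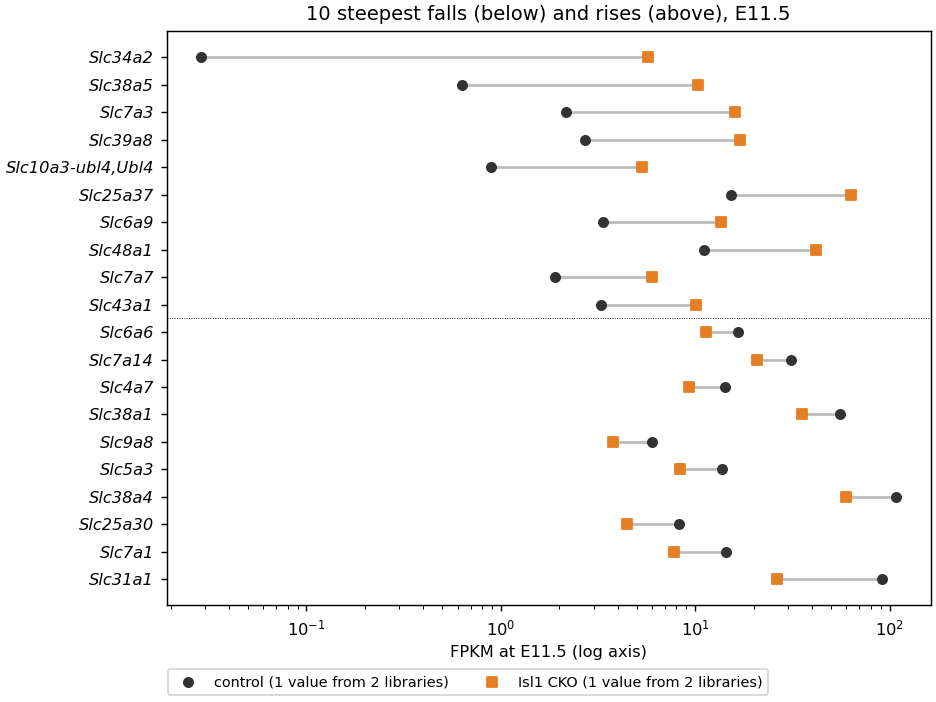
FPKM at E11.5 (log axis) of the 10 steepest falls and 10 steepest rises among members at 5 FPKM or more in either genotype, with circles for control and squares for CKO ganglia, each 1 value from 2 libraries. Falls range from *Slc31a1* (91.3 to 26.5 FPKM) to *Slc6a6* (16.6 to 11.4), and rises from *Slc43a1* (3.28 to 10.0) to *Slc34a2* (0.0288 to 5.73).

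Of the members with known roles in iron, heme and glycine transport, which form no fixed list, some were higher at E11.5 and some were not. *Slc25a37*, mitoferrin, which imports iron into mitochondria for heme synthesis in red cell precursors, was at 15.2 FPKM in controls against 63.3 in the CKO, a log2 ratio of 2.05. *Slc48a1*, a heme transporter of lysosomes and endosomes, was at 11.1 and 41.8 FPKM, a ratio of 1.91. *Slc6a9*, a glycine transporter, was at 3.37 and 13.6 FPKM, a ratio of 1.98. The mitochondrial glutathione carrier *Slc25a39* was at 88.1 and 203 FPKM, a ratio of 1.204, which was the largest rise in FPKM of any member. The iron exporter *Slc40a1*, added after its values were seen, was at 5.86 and 12.7 FPKM, a ratio of 1.10. At E14.5 the ratios of these 5 genes were 0.25, -0.06, 0.30, 0.02 and 0.50, none of them 1.5-fold apart. Others of like function, also added afterwards, were close to equal at E11.5, with ratios of 0.06 for the iron transporter *Slc11a2*, 0.03 for the other mitoferrin, *Slc25a28*, and -0.04 for the mitochondrial glycine carrier *Slc25a38*. The log2 ratio of *Alas2*, the enzyme that starts heme synthesis in red cell precursors, was 4.89 at E11.5 and 0.26 at E14.5, and the part of red cell RNA in the members' values was not tested.

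The steepest rises started from low control levels. *Slc34a2*, a sodium and phosphate cotransporter of epithelia, was at 0.0288 FPKM in controls against 5.73 in the CKO, a log2 ratio of 5.50 that was 2.71 with 1 added to each FPKM and 7.21 with 0.01 added. *Slc38a5*, a transporter of glutamine and related amino acids, was at 0.635 and 10.3 FPKM, a ratio of 3.83 (2.79 with 1 added). Neither gene was listed at E14.5. *Slc7a3*, an importer of cationic amino acids, was at 2.16 and 15.9 FPKM at E11.5, a ratio of 2.83, and at 5.29 and 6.93 at E14.5, a ratio of 0.38. *Slc39a8*, an importer of zinc and manganese, was at 2.72 and 17.1 FPKM, a ratio of 2.61, against 0.869 and 1.13 at E14.5. *Slc10a3-ubl4,Ubl4*, a row that joins a readthrough transcript with the neighbouring *Ubl4*, was at 0.888 and 5.32 FPKM, a ratio of 2.46 (1.74 with 1 added). The fixed list of trophoblast and decidual genes moved at the same stage, from a sum of 0.572 FPKM in control to 92.2 in CKO ganglia, with 4 of 4 listed genes higher and 8 of 12 not listed, and its part in these values was not tested.

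Families 7 and 43, which hold transporters of large neutral amino acids, were split at E11.5. *Slc43a1* was at 3.28 FPKM in controls against 10.0 in the CKO, a log2 ratio of 1.59, and *Slc43a3*, whose protein carries purine nucleobases, was at 9.62 and 22.6 FPKM, a ratio of 1.22. *Slc7a7* was at 1.91 and 6.001 FPKM, a ratio of 1.60, and *Slc7a8* at 3.97 and 7.64 FPKM, a ratio of 0.93. Both need the heavy chain *Slc3a2* to reach the plasma membrane, and *Slc3a2*, added after its values were seen, was at 32.5 and 58.1 FPKM, a ratio of 0.84. *Slc7a5*, which pairs with the same heavy chain and was likewise added afterwards, was at 20.6 and 18.98 FPKM, a ratio of -0.12. *Slc7a6*, a further partner of the heavy chain, and *Slc43a2* had ratios of -0.28 and -0.02, so that neither the partners nor family 43 differed in one direction. At E14.5 the ratio of *Slc3a2* was -0.28 and that of *Slc7a8* was -0.46.

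Members chosen for their role in neurons and glia included transporters of glutamate, chloride and vesicle contents. *Slc1a3*, the glial glutamate transporter, was at 2.91 FPKM in controls against 4.91 in CKO ganglia at E11.5, a log2 ratio of 0.74 that fell to 0.51 after rescaling without erythroid genes. The sum of neural crest and glial markers was 357 FPKM in controls against 767 in CKO ganglia, and its part in the *Slc1a3* value was not tested. *Slc12a2*, which brings chloride into cells, was at 8.91 and 6.66 FPKM at E11.5 and at 12.4 and 13.8 at E14.5. Its E11.5 log2 ratio of -0.41 came to -0.65 after rescaling, past 1.5-fold. *Slc12a5*, which moves chloride out of mature neurons, was listed at E14.5 only, at 1.23 and 1.46 FPKM. At E14.5 the level of *Slc12a2* thus exceeded that of *Slc12a5*, and neither was 1.5-fold apart. *Slc6a17*, a vesicular amino acid transporter, was at 0.713 and 1.09 FPKM at E11.5 and at 2.46 and 2.75 at E14.5. *Slc17a6*, the vesicular glutamate transporter chosen for its role, was not listed in the tables used here.

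Grouped by the substrates of their families, the members split as follows, beside 18.9% of all genes higher and 12.9% lower at E11.5 (median 0.05). Of 39 listed genes in amino acid families at E11.5, 12 were higher and 5 lower, with a median log2 ratio of -0.03, and of 31 genes in inorganic ion families, 4 were higher and 5 lower (median -0.09). Of 24 genes in sugar and carboxylate families, 9 were higher and 2 lower (median 0.29), and of 26 genes in metal and heme families, 5 were higher and 1 lower (median 0.21). Of 38 mitochondrial carriers, 4 were higher and 1 lower (median 0.01). None of the 5 nucleotide sugar transporters of the Golgi and none of the 2 vesicular family members reached 1.5-fold, and of 29 genes in the remaining families for organic ions, vitamins, lipids and nucleosides, 5 were higher and 2 lower (median 0.32). The nucleotide sugar transporter *Slc35a3*, at -0.41, came to -0.64 after rescaling, past 1.5-fold. Of the 9 higher genes in sugar and carboxylate families, 4 were under 1 FPKM in control ganglia and entered the table only through their CKO value, and *Slc2a8*, the most abundant of family 2, came to 0.55 after rescaling, under 1.5-fold. The same limit holds for the higher amino acid genes *Slc1a6*, *Slc7a4*, *Slc15a3* and *Slc38a5*. It also holds for *Slc10a3-ubl4,Ubl4*, *Slc14a1* and *Slc22a4* in the remaining families, and for *Slc34a2*, *Slc30a10* and *Slc25a21*. The substrate belongs to the family and not always to the member, as with the iodide transporter *Slc5a5* in family 5, added after its values were seen, at 0.278 and 1.40 FPKM. The counts also include rows with longer symbols that are not transporters. Of these, *Slc2a4rg-ps* and *Slc36a1os* are among the lower genes, and *Slc9a3r1* and *Slc10a3-ubl4,Ubl4* are among the higher genes.

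**Figure D3:**
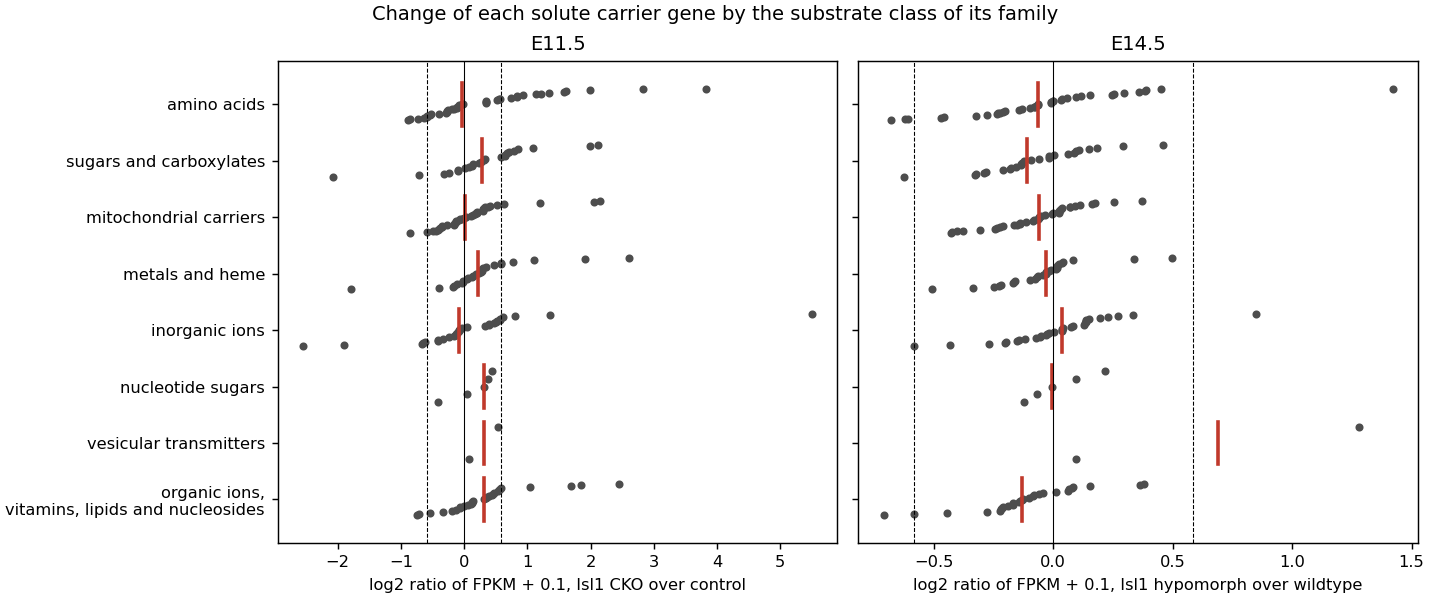
Log2 ratio of mutant over control FPKM (0.1 added to each) for every listed member, by the substrate class of its family, at E11.5 (left) and E14.5 (right, on a narrower axis). Each point is 1 gene, red bars are class medians, and dashed lines mark 1.5-fold. At E11.5 the medians ran from -0.09 (inorganic ions) to 0.32 (organic ions, vitamins, lipids and nucleosides), and at E14.5 from -0.13 (organic ions, vitamins, lipids and nucleosides) to 0.69 (vesicular transmitters, 2 genes). Those 2 genes were *Slc18a1*, at 1.28, and *Slc17a5*, at 0.096.

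The mitochondrial carriers were the largest family. All 38 listed genes summed to 1462 FPKM in controls against 1873 in CKO ganglia at E11.5, and to 1668 in wildtype and 1555 in hypomorphic ganglia at E14.5. At E11.5 19 of the 38 were above 0 and 19 below. At E14.5 24 were below 0 and 14 above, and none reached 1.5-fold, against 2.12% of all genes lower and 2.89% higher. At E11.5, 4 of 38 were higher and 1 lower, against 18.9% and 12.9% of all genes. Besides *Slc25a37* and *Slc25a39*, the citrate carrier *Slc25a1* was higher at E11.5, at 41.4 FPKM in controls against 64.4 in CKO ganglia (log2 ratio 0.64, 0.58 after centring and 0.40 after rescaling), and it was at 96.9 and 72.3 FPKM at E14.5 (-0.42).

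At E14.5 the hypomorph and wildtype values lay close together, and 8 members were at least 1.5-fold apart. Of 196 listed members, 3 (1.53%) were higher, against 2.89% of all 13413 genes, and 5 (2.55%) were lower, against 2.12% of all genes. The members' median log2 ratio was -0.05, against 0.003 for all genes, and 119 of 196 members (60.7%) had a ratio below 0, against 49.3% of all genes. Neither share of called members was far from that of all genes.

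The 2 higher members at 5 FPKM or more in either genotype were an amino acid transporter gene and a vesicular monoamine transporter. *Slc38a11* (mm9 chr2:65154487-65202091), a family 38 gene whose promoter is printed above, was at 9.75 FPKM in wildtype and 26.3 in hypomorphic ganglia, a log2 ratio of 1.42. At E11.5 it was at 9.70 FPKM in controls against 8.10 in CKO ganglia, a ratio of -0.26. *Slc18a1* (mm9 chr8:71561610-71613134), the vesicular monoamine transporter typical of chromaffin cells, was at 18.2 and 44.4 FPKM, a ratio of 1.28. At E11.5 it was at 27.3 and 39.7 FPKM, a ratio of 0.54 just short of 1.5-fold. Both genes were called at E14.5 and neither at E11.5, and the difference between the stages was not tested. *Slc26a7*, an anion transporter and the third higher member, was named after its values were seen and was at 1.33 and 2.47 FPKM, a ratio of 0.85. With 1 added to each FPKM it was no longer called, which left 2 higher members. No other member came near, since the next ratio was 0.50 for *Slc40a1*.

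The lower members at E14.5 lay near the 1.5-fold line. *Slc6a15*, a neuronal transporter of neutral amino acids, was at 15.7 FPKM in wildtype and 10.2 in hypomorphic ganglia, a log2 ratio of -0.62, and at E11.5 it was at 8.59 and 5.97 FPKM, a ratio of -0.52. *Slc36a1*, which exports amino acids with protons from lysosomes, was at 47.7 and 31.2 FPKM, a ratio of -0.61, but was at 12.1 and 15.4 FPKM at E11.5, a ratio of 0.35. *Slc2a6*, a lysosomal member of the glucose transporter family, was at 8.61 and 5.54 FPKM, a ratio of -0.63. The serotonin transporter *Slc6a4*, named after its values were seen, was at 1.75 and 1.06 FPKM, a ratio of -0.68. *Slc6a15*, *Slc36a1* and *Slc2a6* were not called at E11.5, and the stages were not compared by a test. Their 3 calls at E14.5 each ended under an alternative. With 1 added to each FPKM, *Slc6a15* came to -0.58 and *Slc2a6* to -0.55, and the rescaling put *Slc36a1* at -0.58. *Slc6a4*, at low levels in both genotypes, was also no longer called with 1 added.

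Just short of 1.5-fold lay *Slc10a4* and *Slc26a4*. The vesicle protein *Slc10a4* was at 51.1 FPKM in wildtype and 34.1 in hypomorphic ganglia, a log2 ratio of -0.58, after -0.07 at E11.5. *Slc26a4* was at 5.72 and 3.78 FPKM, likewise a ratio of -0.58, after -2.55 at E11.5. Its E14.5 ratio passed 1.5-fold after centring (-0.587) and with 0.01 added to each FPKM (-0.596). *Slc29a4*, a transporter of monoamines and adenosine, was at 70.1 and 51.6 FPKM, a ratio of -0.44, whereas it was at 23.03 and 34.7 FPKM at E11.5, a ratio of 0.59 that came under 1.5-fold with 1 added to each FPKM (0.57), after centring (0.54) and after rescaling (0.36). The sodium and calcium exchanger *Slc8a3* was at 5.08 and 3.74 FPKM (-0.43), the mitochondrial glutamate carrier *Slc25a22* at 29.3 and 21.8 FPKM (-0.43) and the magnesium transporter *Slc41a2* at 7.12 and 4.98 FPKM (-0.51).

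**Figure D4:**
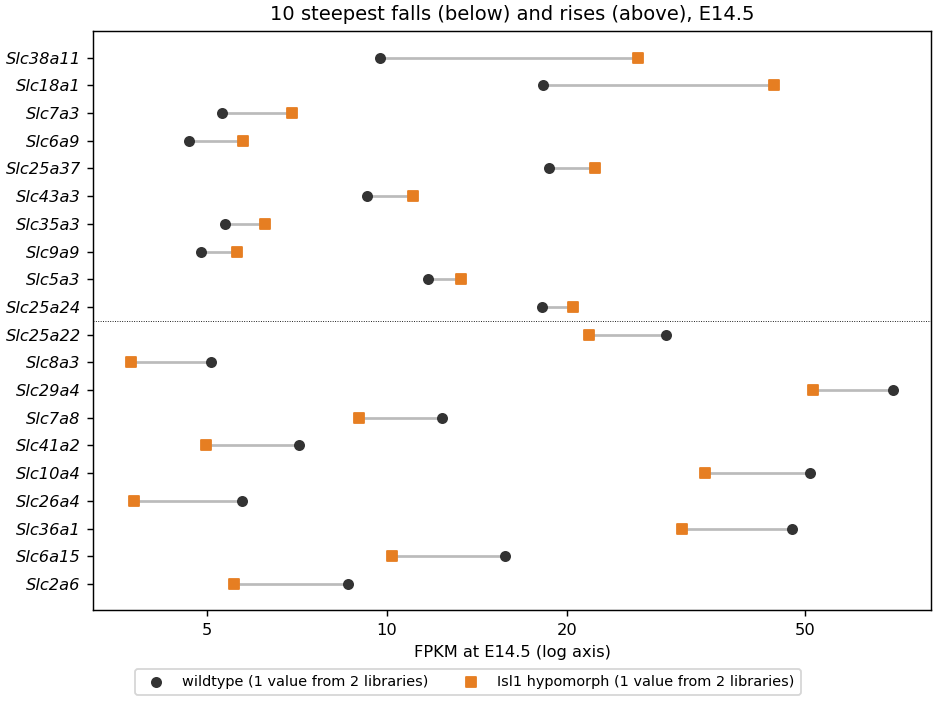
FPKM at E14.5 (log axis) of the 10 steepest falls and 10 steepest rises among members at 5 FPKM or more in either genotype, with circles for wildtype and squares for hypomorphic ganglia, each 1 value from 2 libraries. *Slc38a11* (9.75 to 26.3 FPKM) and *Slc18a1* (18.2 to 44.4) stand apart from the other 8 rises, which were all under 1.5-fold.

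A single member, *Slc44a5*, was at least 1.5-fold apart in the same direction at both stages as the tables were scaled. *Slc6a15* was another after rescaling without erythroid genes (-0.75 at the earlier and -0.59 at the later stage). *Slc26a4*, at -2.55 at E11.5, also passed 1.5-fold at E14.5 after centring (-0.587) and with 0.01 added to each FPKM (-0.596). *Slc44a5* (mm9 chr3:153636400-153934686), a gene of the choline transporter-like family, was at 1.98 FPKM in controls against 1.14 in CKO ganglia at E11.5, a log2 ratio of -0.74, and at 2.59 and 1.55 FPKM at E14.5, a ratio of -0.71. Both ratios came under 1.5-fold when 1 instead of 0.1 was added to each FPKM (-0.48 and -0.50). No member was higher in both tables, and none was called in opposite directions. Only 3 higher and 5 lower members were called at E14.5, and the same overlap over all genes is not given here. These counts therefore do not show whether solute carriers differ from other genes. Of the 39 members higher at E11.5, 32 were listed at E14.5, where their median log2 ratio was 0.05 and 18 lay above 0, and of the 16 lower members 15 were listed, with a median of -0.11 and 9 below 0. The 23 members that were at least 2-fold higher at E11.5 had 16 listed at E14.5, between -0.47 and 0.50. Among all 185 members in both tables, 50 were below 0 at both stages, 43 above 0 at both, 61 above 0 at E11.5 and below 0 at E14.5, and 31 the reverse.

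Partners on which transporters depend had a small median difference between genotypes as a list. The list held 36 listed genes for the sodium pump, the vesicular proton pump, chloride exchangers and transporter chaperones. At E11.5, 5 were higher and 1 lower, against 18.9% and 12.9% of all genes, with a median log2 ratio of 0.04. None was 1.5-fold apart at E14.5, against 2.89% of all genes higher and 2.12% lower, with a median of -0.08. *Bsg*, the chaperone of monocarboxylate transporters, was at 218 FPKM in controls against 331 in CKO ganglia at E11.5 (0.60), while *Slc16a3*, one of the lactate transporters that it carries, was at 14.3 and 12.1 FPKM (-0.23). *Clcn3*, a chloride and proton exchanger of vesicles and endosomes, was the lower gene, at 36.7 and 21.4 FPKM (-0.77).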

How the data were processed

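Polyadenylated RNA from dissected sympathetic ganglia was sequenced, 2 libraries per genotype and stage. The authors mapped paired reads to mm9 with TopHat and computed FPKM with cuffdiff, which combined both libraries into the 1 deposited FPKM per gene and genotype. The submitters' processing notes instead name TopHat 1.3.1, Cuffdiff 1.3.0, Bowtie and a build of another species, although the symbols are those of mouse genes. The authors' log2 fold change and p-value columns hold their own comparison and were not used. Here members were picked by symbol, 0.1 was added to each FPKM, and a log2 ratio of mutant over control was taken (Python 3.11.15, pandas 2.3.3, numpy 2.4.6, checked on simulated data). A difference of 1.5-fold was called without a test, because each group has 1 value. Combining libraries hides their spread.

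The members, gene lists and tests were chosen with earlier results of these data known. Named genes were the 10 most abundant in control, the 10 steepest falls and rises at 5 FPKM or more, the most abundant of each family, those called in both tables or listed at 0 (none), and 8 chosen for their role. Alternatives were other pseudocounts, FPKM minimums, fold thresholds, centring, and rescaling without erythroid genes. Positions come from the mm9 annotation and promoters from RefSeq (GRCm38.p6).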

Additional observations from a re-analysis of the deposited data

How the results depend on the processing

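Single-library values were not used here, so the spread between libraries, the depth and leave-one-out values could not be had. No paired analysis was possible because each genotype has 1 combined value per gene. At E11.5 the count of lower members was 16 as reported, 9 with a pseudocount of 1, 8 at 5 FPKM or more in either genotype, 10 at 1 FPKM or more in both, 32 after rescaling without erythroid genes, 4 at 2-fold and 40 at 1.2-fold. The count of higher members was 39 as reported, 22 at 5 FPKM or more, 25 at 1 FPKM or more in both, 25 at 1 FPKM or more in control (a setting chosen after seeing the data), 23 at 2-fold and 84 at 1.2-fold. The members' median log2 ratio of 0.13 turned to -0.10 after the rescaling, which moved the median of all genes to -0.18. At E14.5 the 5 lower members became 1 with a pseudocount of 1, 3 at 5 FPKM or more, 0 at 2-fold and 26 at 1.2-fold, and the 3 higher members became 2 with a pseudocount of 1 and 17 at 1.2-fold. The cause of these shifts was not tested, beyond fewer or more genes passing a filter or fold. At 5 FPKM or more in either genotype there were 133 members at E11.5 and 139 at E14.5. Apart from the rescaling, shares over all genes are not given for these alternatives. Their counts therefore do not show whether solute carriers differ from other genes. Of 70 members at 10 FPKM or more in E11.5 control, 6 were lower and 8 higher, against 13.8% and 9.46% of all 7244 such genes. Of 114 values of 59 named members, 12 crossed 1.5-fold after rescaling, 7 with a pseudocount of 1, 5 after centring and 2 with a pseudocount of 0.01. A pseudocount of 1 moved the E11.5 ratios of *Slc34a2*, *Slc38a5*, *Slc10a3-ubl4,Ubl4* and *Slc26a4* by more than 1.5-fold.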

Other observations

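The 11 members in the E14.5 table alone include the glutamate transporters *Slc1a1* (1.56 FPKM in wildtype and 1.45 in hypomorphic ganglia) and *Slc1a2* (0.858 and 1.15). The table of the mm9 annotation holds 327 protein-coding genes with a plain solute carrier symbol, of which 194 are members listed here, 7 were left out by the naming rule and 126 are in neither table used here. The scaffold protein gene *Slc9a3r1*, which shares only a symbol stem with the sodium and proton exchangers, was at 12.3 FPKM in control and 31.8 in CKO ganglia at E11.5 (log2 ratio 1.36) and at 19.96 and 20.5 at E14.5.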
